A study of Rattus norvegicus with 192 samples.

Results

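Macrophages, and the microglia that are their counterpart in the brain, were followed through 8 genes in 4 tissues of rats given PFOS, vancomycin or both. The genes were C1qa, C1qb, C1qc, Csf1r, Cd68, Cd74, Aif1 and Tyrobp, chosen by symbol as 8 of the 17483 genes counted. PFOS is perfluorooctanesulfonate, a persistent fluorinated surfactant, and vancomycin is a glycopeptide antibiotic that acts largely within the gut when given by mouth. Adult male wild-type Crl:CD(SD) rats received corn oil alone (vehicle), vancomycin at 8 mg/kg body weight per day, PFOS at 3 mg/kg body weight per day, or both agents (the combination), by daily gavage for 7 days, from postnatal day 56 to 62. Hypothalamus, pituitary, thyroid and liver were each sampled in 12 libraries per treatment, and RNA was counted by 3' bulk RNA barcoding, in which every library carries a short barcode and transcripts are read near their 3' end. With libraries under 100000 total counts left out, 178 of 192 remained: 47 from hypothalamus, 48 from pituitary, 46 from thyroid and 37 from liver.

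Macrophages settle in nearly every organ and clear debris and dying cells, and their self-maintaining forms include microglia in the brain and Kupffer cells in the liver sinusoids. Csf1r is the receptor for the growth factors CSF1 and IL34 that keep these cells alive. Tyrobp is the membrane adaptor through which receptors such as TREM2 signal. C1qa, C1qb and C1qc encode the chains of C1q, the recognition molecule of the classical complement pathway, which resident macrophages and microglia make in quantity. Aif1 encodes the actin-binding protein IBA1 by which microglia are commonly stained, Cd68 encodes a glycoprotein of the late endosome and lysosome, and Cd74 encodes the invariant chain that guides MHC class II molecules to the compartment where peptides are loaded. Cd74 is also made by other antigen-presenting cells, B cells and some activated non-immune cells, so it is not restricted to macrophages. These were bulk libraries, in which fewer cells of a type and less RNA per cell cannot be told apart.

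Kept libraries held 106742 to 3387946 counts, with tissue medians of 726925 in hypothalamus, 517282 in pituitary, 501447 in thyroid and 481289 in liver. Tissue labels were checked against cell type markers: pituitary hormone genes took 19.9% to 46.97% of counts in pituitary, thyrocyte genes 3.86% to 8.45% in thyroid, hepatocyte genes 8.66% to 17.2% in liver, and neuronal genes 0.283% to 0.453% in hypothalamus, each above its range in the other tissues. Hypothalamus and pituitary were processed on one plate of 96 wells and thyroid and liver on the other, so a tissue difference across plates cannot be told apart from a plate difference. Each treatment group sat in its own row of wells, so treatment and well position cannot be told apart either. Levels are given as CPM, the share of a library's counts in parts per 1000000. The labels number the samples and do not say that each is a separate animal, so p-values measure the spread between these samples.

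The C1q genes are neighbours in the rat annotation, with all 3 in adjacent rows of the RefSeq table, and the stretches upstream of C1qa and C1qb are shown because these are the C1q promoters held by RefSeq's table and C1qb was the gene called for treatment. Each line gives the 250 bases before the gene's start in RefSeq's GRCr8 build, on the gene's own strand. Capitals mark GGAAGT or its reverse complement ACTTCC, a core to which PU.1 and other ETS-family factors of myeloid cells can bind.
C1qa, chr5:154419934-154420183, minus strand: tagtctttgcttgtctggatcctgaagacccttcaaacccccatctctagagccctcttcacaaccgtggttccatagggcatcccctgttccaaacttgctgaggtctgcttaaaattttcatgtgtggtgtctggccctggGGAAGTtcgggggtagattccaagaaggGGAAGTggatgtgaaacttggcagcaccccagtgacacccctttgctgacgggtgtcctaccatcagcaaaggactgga
C1qb, chr5:154407828-154408077, minus strand: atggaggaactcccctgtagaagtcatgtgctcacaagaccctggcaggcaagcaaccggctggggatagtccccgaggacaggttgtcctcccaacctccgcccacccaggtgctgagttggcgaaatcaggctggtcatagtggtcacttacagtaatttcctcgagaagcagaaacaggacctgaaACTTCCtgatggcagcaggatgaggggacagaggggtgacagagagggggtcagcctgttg

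The C1qa stretch held GGAAGT 2 times, at 107 and 79 bases before the start, and the C1qb stretch held it once on the opposite strand, at 61 bases. On either strand the motif occurred in 19.2% of the 33469 rat promoters of that length. RefSeq promoter entries matched 5 of the 8 genes. Of the others, Cd68 held GGAAGT once and Cd74 and Csf1r held none, while CCAAT (34% of promoters, either strand) occurred once in each of Cd68, Cd74 and Csf1r and in neither C1q gene. These matches describe the letters in the window and were not tied to any measurement.

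In hypothalamus of vehicle rats the C1q chains were all readily counted. C1qa ran from 20.02 to 59.9 CPM with a median of 36.3, C1qb from 27.2 to 79.6 with a median of 50.9, and C1qc from 8.69 to 49 with a median of 29.3. Thyroid and liver gave similar CPM ranges, and pituitary lay lower. Vehicle medians in thyroid were 28.2 for C1qa, 35.4 for C1qb and 31.8 for C1qc, and in liver 33.4, 45.95 and 39.1 in the same order. Pituitary medians were 12.3, 18.3 and 10.2 CPM, and its C1qa and C1qc counts were too low to be tested for treatment within that tissue. Summed over the chains and all treatments, C1q ran from 54.6 to 186 CPM in hypothalamus, 18.4 to 80.9 in pituitary, 44.2 to 136 in thyroid and 61.9 to 189 in liver, so the ranges of neighbouring tissues overlapped.

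Csf1r stood higher in hypothalamus than in the other tissues. Vehicle hypothalamus ran from 46.8 to 97.5 CPM with a median of 76.0, against 10.8 to 56.8 (median 23.96) in pituitary, 14.5 to 43.5 (median 26.5) in thyroid and 6.10 to 30.4 (median 18.7) in liver. The hypothalamic range overlapped that of pituitary and lay above those of thyroid and liver. Aif1 was also highest in hypothalamus, though the other tissues followed in another order. Its vehicle medians were 104.9 CPM in hypothalamus (71.8 to 127.8), 50.2 in pituitary (26.9 to 69.9), 35.4 in thyroid (15.8 to 45.6) and 36.7 in liver (24.4 to 53.0). Here the hypothalamic range lay above all the others. Tyrobp medians were 79.1 CPM in hypothalamus (57.8 to 113.5), 44.1 in pituitary (6.31 to 106), 51.1 in thyroid (25.1 to 83.3) and 37.4 in liver (18.7 to 55.9). Its ranges overlapped in every tissue pair except hypothalamus with liver.

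Cd68 was sparsely counted. In hypothalamus it gave 27 counts in 47 libraries and none in 32 of them, with group medians of 0, 0, 0.615 and 0 CPM under vehicle, vancomycin, PFOS and the combination. Over all libraries its medians were 2.33 CPM in pituitary, 4.97 in thyroid and 9.37 in liver, where 3 of 37 libraries had no count. Cd68 failed the filter on low counts in every fit. With that filter lifted, hypothalamus was lower, with log2 differences of -2.08 from pituitary (SE 0.59, edgeR adjusted p = 0.00237), -2.58 from thyroid (SE 0.48, adjusted p = 2.02e-06) and -4.52 from liver (SE 0.51, adjusted p = 2.59e-13), while pituitary and thyroid were not shown to differ (-0.50, 95% interval -1.42 to 0.41).

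Cd74 ordered the tissues differently from Csf1r and Aif1. Vehicle hypothalamus ran from 30.9 to 100.1 CPM (median 54.6), pituitary from 414.1 to 847.9 (median 553), thyroid from 488.6 to 918.5 (median 697.3) and liver from 115.9 to 427 (median 174.5). Hypothalamus therefore lay below every other tissue with no overlap. Over all treatments the hypothalamic libraries spanned 19.1 to 161 CPM and the liver libraries 64.9 to 427, which do overlap, while pituitary (333 to 954) and thyroid (428 to 1011) stayed above both hypothalamus and most of liver.

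**Figure D1:**
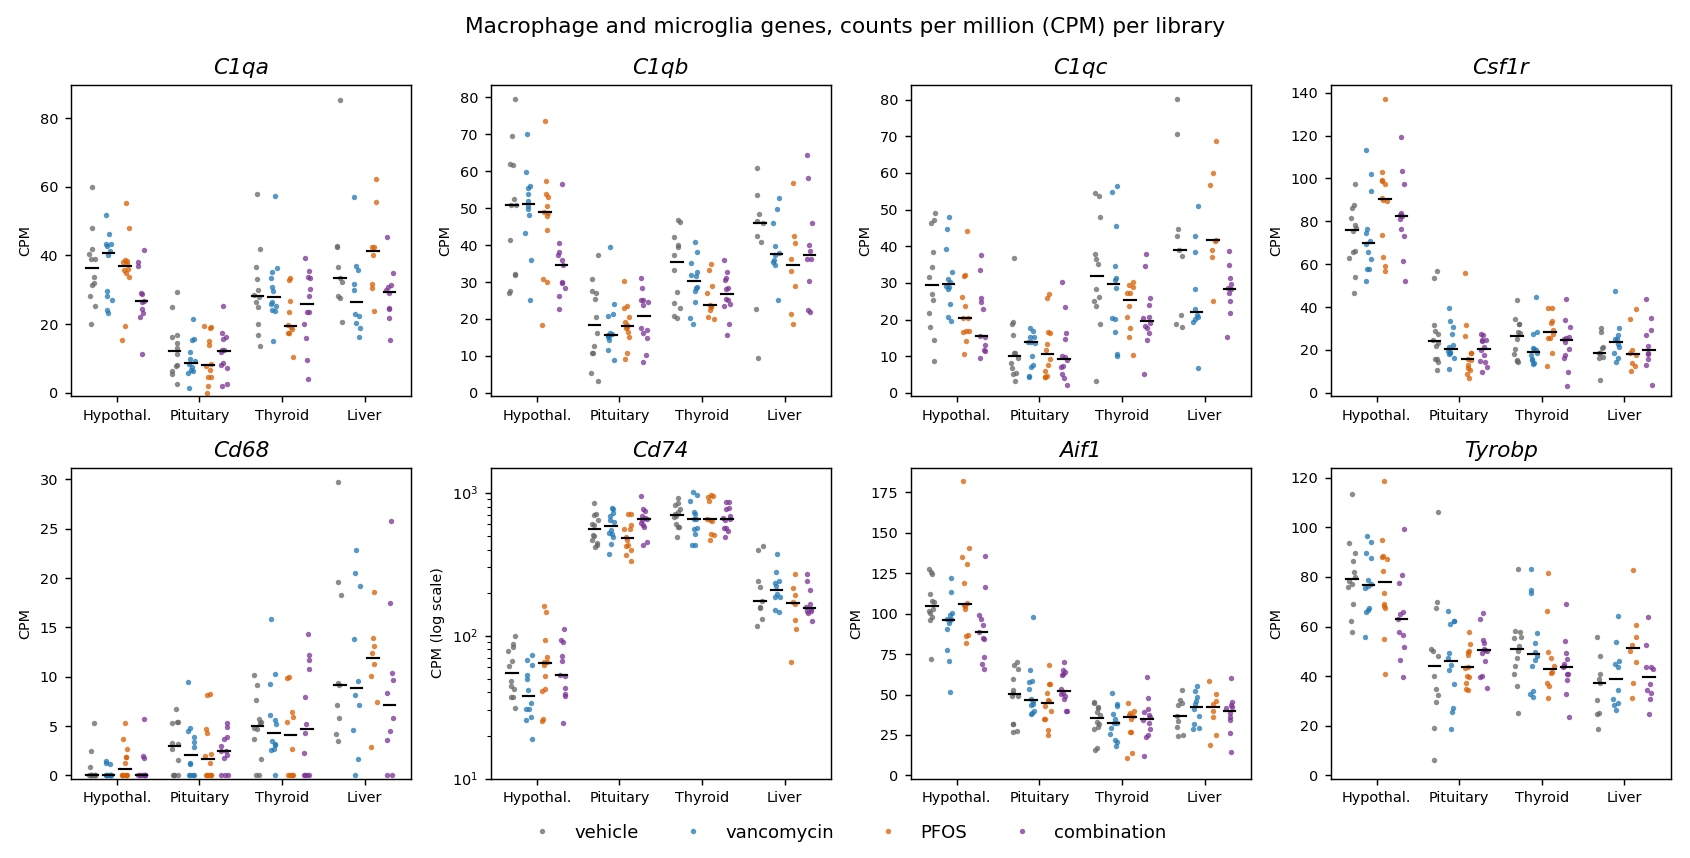
CPM of each of the 8 genes in every kept library, by tissue and treatment, with Cd74 on a logarithmic axis. Hypothalamic libraries sit highest for Csf1r and Aif1 and lowest for Cd74, whose vehicle values are 30.9 to 100.1 CPM there and 414.1 to 847.9 in pituitary.

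The balance of Cd74 against C1q also differed between tissues. Cd74 made up a median 12.8% of the counts of the 8 genes in hypothalamus, 45.1% in liver, 76.98% in thyroid and 78.3% in pituitary. The C1q chains made up 25.8% in hypothalamus, 24.8% in liver, 9.25% in thyroid and 5.36% in pituitary. The log2 ratio of Cd74 to summed C1q counts, which needs no scaling between libraries, ran from -2.56 to 1.06 in hypothalamus (median -0.94), -0.74 to 2.16 in liver (median 0.77), 2.17 to 4.17 in thyroid (median 3.03) and 2.38 to 5.15 in pituitary (median 3.82). No hypothalamic or liver library reached the range of thyroid or pituitary. Within hypothalamus the medians were -1 under vehicle, -1.62 under vancomycin, -0.90 under PFOS and -0.45 under the combination, and these treatment ranges were not tested as a ratio.

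**Figure D2:**
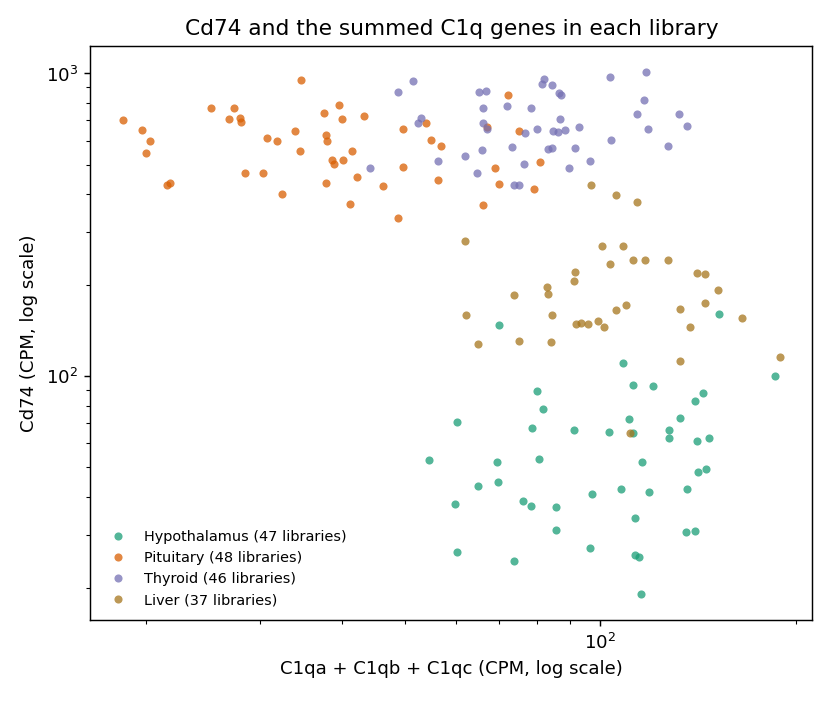
Cd74 CPM against the summed CPM of C1qa, C1qb and C1qc in each kept library, with both axes logarithmic and colours marking the tissue. Pituitary and thyroid libraries lie at high Cd74, and hypothalamic libraries lie at 19.1 to 161 CPM of Cd74 with C1q sums of 54.6 to 186 CPM.

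Tissue differences were tested in vehicle rats, over 6560 genes that passed a filter on low counts, with edgeR's quasi-likelihood test and Benjamini-Hochberg adjustment. A gene was called at an adjusted p under 0.05, and 7 of the 8 genes entered. Between hypothalamus and pituitary 4 were higher in hypothalamus and 1 lower, where 68.2% of all genes were called. Against thyroid 2 were higher and 1 lower in hypothalamus (76.1% of genes called), and against liver none was higher and 4 lower (75.4% called). Pituitary against thyroid gave 1 higher and 2 lower (68.3% called), pituitary against liver 1 higher and 4 lower (70.5% called), and thyroid against liver 1 higher and 6 lower (64.8% called). Since most genes differed between any 2 of these tissues, the counts themselves carry little, and sizes and directions are given instead.

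Scaling mattered to some of these directions. The main fit used TMM factors, which set most genes level between libraries, and the alternative used total counts alone, as CPM does. Total counts moved the median of all genes from 0.09 to 0.66 (log2) for hypothalamus against pituitary, from 0.01 to 0.28 against thyroid and from 0.22 to 1.62 against liver, from -0.04 to -0.34 for pituitary against thyroid, from 0.23 to 1.05 for pituitary against liver, and from 0.28 to 1.37 for thyroid against liver. Both values are therefore printed where they disagree in direction or call.

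Cd74 was lower in hypothalamus than in each other tissue under every setting tried. The log2 differences were -3.83 from pituitary (SE 0.20, edgeR adjusted p = 2.99e-22), -3.81 from thyroid (SE 0.20, adjusted p = 9.3e-23) and -3.28 from liver (SE 0.21, adjusted p = 5.18e-19), and with total counts they were -3.25, -3.54 and -1.92. Pituitary and thyroid were not shown to differ (0.02 with TMM, 95% interval -0.32 to 0.36, and -0.29 with total counts, neither called), and thyroid exceeded liver by 0.53 (1.63 with total counts). Pituitary hormone genes summed to 4710 to 9810 CPM in the hypothalamic libraries of the same plate, and the part of any pituitary RNA in hypothalamic Cd74 was not tested.

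Csf1r was higher in hypothalamus than in pituitary by 0.91 (SE 0.19, edgeR adjusted p = 1.85e-05) and than in thyroid by 1.31 (SE 0.17, adjusted p = 4.57e-10), and both calls held under all 7 other settings. Against liver the difference was 0.41 and not called with TMM, and 1.82 and called with total counts. Aif1 was higher in hypothalamus than in thyroid by 1.34 (SE 0.14, adjusted p = 5.33e-13) and than in pituitary by 0.53 (SE 0.15, adjusted p = 0.00119), and pituitary exceeded thyroid by 0.81. For Aif1 against liver the values were 0.12 with TMM, not called, and 1.52 with total counts. Tyrobp in hypothalamus was not called against any tissue with TMM, at 0.15 from pituitary, 0.38 from thyroid and -0.38 from liver, while total counts gave 0.73, 0.65 and 1.03, all called. With the replicate number as a block the TMM difference from thyroid was 0.39 and called (SE 0.16, edgeR adjusted p = 0.0231). Pituitary against liver gave -0.53 for Tyrobp (called), -0.50 for Csf1r and -0.40 for Aif1 (not called) with TMM, and 0.30, 0.34 (not called) and 0.42 (called) with total counts. Pituitary against thyroid gave 0.23 and -0.07 for Tyrobp, neither called.

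The C1q chains were lower in pituitary than in liver, by -2.16 for C1qa, -1.84 for C1qb and -2.39 for C1qc, and these calls held in all 7 other settings, total counts included (-1.35, -1.03 and -1.56). Pituitary also lay below hypothalamus for C1qa by 0.82 and C1qb by 0.68 on the log2 scale. With only libraries of at least 500000 counts, 2 of the 5 calls between hypothalamus and pituitary were kept, Csf1r at 1.43 and Cd74 at -3.47, while C1qa was at 0.44, C1qb at 0.13 and Aif1 at 0.35, none of them called. C1qc differed by 0.52 there, not called, and by 1.09 with total counts, called. Hypothalamus against thyroid gave 0.05 for C1qa, 0.30 for C1qb and -0.41 for C1qc, none called, while total counts gave 0.32, 0.57 and -0.14, of which C1qb was called. Pituitary against thyroid gave -0.77 for C1qa and -0.93 for C1qc, both called, and -0.38 for C1qb, not called with TMM and called at -0.68 with total counts. Hypothalamus lay below liver with TMM, at -1.34, -1.16 and -1.87, but total counts gave 0.04, 0.23 and -0.47, none called, so the direction for C1qa and C1qb depends on the scaling. Thyroid against liver behaved likewise: the 6 genes called lower with TMM, at -1.46 to -0.76, were not called with total counts, where Csf1r and Tyrobp turned to 0.24 and 0.38.

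**Figure D3:**
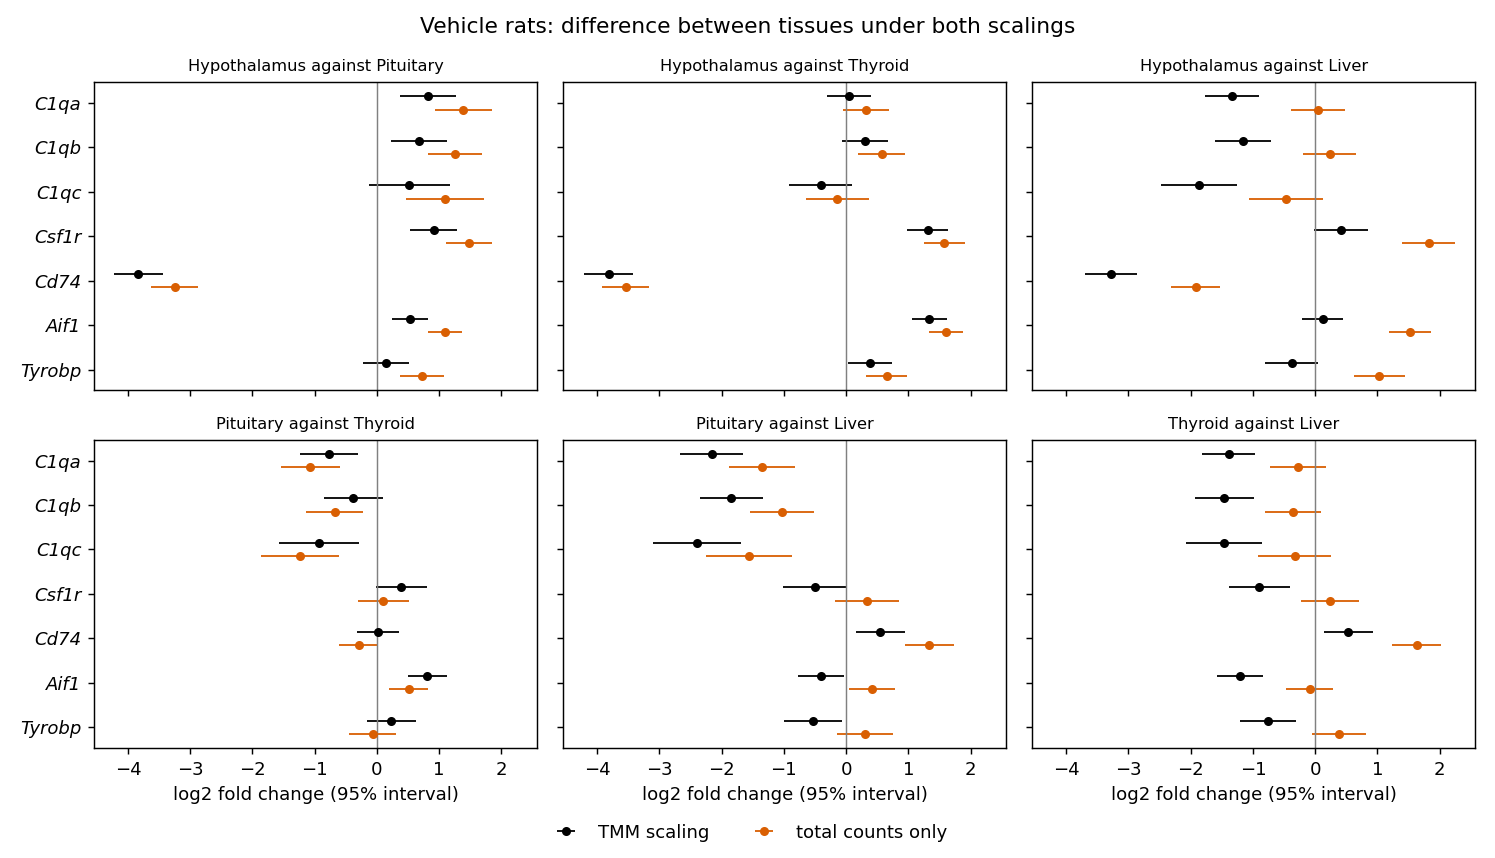
Log2 differences between tissues in vehicle rats for the 7 genes tested, with 95% intervals, under TMM scaling and under total counts. Cd74 in hypothalamus stays below 0 under both against every tissue (-3.83 and -3.25 against pituitary), while C1qa against liver moves from -1.34 to 0.04.

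Other genes of the same pathways were read from lists, with the first 4 tested genes of each named. Among MHC class II genes, the partners of Cd74, 5 were tested. Hypothalamus was higher for 1 and lower for 3 against pituitary, lower for 3 against thyroid, and higher for 1 and lower for 3 against liver. RT1-Da, a class II alpha chain gene, was lower in hypothalamus, at -3.71, -4.12 and -3.39 on the log2 scale against pituitary, thyroid and liver. RT1-Db1, a class II beta chain gene, was at -3.03, -4.31 and -4.05, and RT1-Ba at -2.84, -3.74 and -3.19, and all 9 of these calls held in the 7 other settings. RT1-DMa, which encodes part of the peptide exchange factor, was instead higher in hypothalamus by 0.95 than in pituitary and 1.21 than in liver. The class II antigen genes thus lay in the same direction as Cd74.

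Il34, the ligand of Csf1r that neurons are known to make, was the tested gene of the list of Csf1r ligands and lineage factors. It was higher in hypothalamus by 1.63 than in pituitary, 1.04 than in thyroid and 2.41 than in liver, in every setting, with medians of 45.6, 11, 16.7 and 2.77 CPM. Among partners of Tyrobp, Trem2, the lipid-sensing receptor of microglia, had medians of 29, 3.98, 2.78 and 0 CPM in hypothalamus, pituitary, thyroid and liver. Every hypothalamic library and 6 of 37 liver libraries counted it at least once.

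Markers of macrophage subtypes set the tissues apart. The microglial genes Cx3cr1, Tmem119 and P2ry12 had medians of 13.8, 7.73 and 2.73 CPM in hypothalamus, 3.69, 0.541 and 0 in pituitary, 0, 1.12 and 0 in thyroid, and 0 in liver for each. Clec4f, a lectin of rodent Kupffer cells, had a median of 170 CPM in liver and summed to 2 counts over all hypothalamic libraries and 9 over all pituitary libraries. Its level in thyroid, which shared a plate with liver, is not given here. Mrc1, the mannose receptor of perivascular and tissue macrophages, had medians of 34.6 CPM in hypothalamus, 2.78 in pituitary, 85.7 in thyroid and 28.4 in liver. Cd163, the haemoglobin scavenger receptor, followed with 8.04, 0, 20.9 and 5.86. Sall1, a nuclear factor known in microglia, was counted at a median of 71.2 CPM in thyroid and 8.28 in hypothalamus, so its level here did not follow the other microglial genes.

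Complement genes beyond C1q followed liver, their main source in the body. C1r and C1s, the proteases that C1q activates, had medians of 316 and 230 CPM in liver, 61.8 and 32.4 in thyroid, 22.7 and 12.6 in pituitary, and 25.5 and 11.6 in hypothalamus. Of 9 tested with TMM scaling, 9 were lower in hypothalamus than in thyroid, and against liver 8 were lower and 1 higher. C3, the central component, had a median of 3.14 CPM in hypothalamus and 51.5 in thyroid. C1q was thus at comparable CPM in hypothalamus and liver while C1r and C1s were not, which is a description of levels and not a test between genes.

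Treatment was tested within each tissue over the genes that passed the filter there. PFOS, vancomycin and their combination were compared with vehicle, the combination with each single agent, and the interaction was estimated. The 8 genes' lowest and highest values overlapped between the groups in all 160 comparisons of gene, tissue and treatment pair. These include the C1qb contrast called below, so overlap of ranges does not mark a gene as unchanged. The share of all genes with overlapping ranges was not computed.

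In hypothalamus 1 gene was called for treatment, C1qb, in rats given both agents. C1qb ran from 27.2 to 79.6 CPM under vehicle (median 50.9), 25.2 to 70.2 under vancomycin (median 51.3), 18.4 to 73.7 under PFOS (median 48.8) and 22.8 to 56.5 under the combination (median 34.7). Of the 11 combination libraries 10 lay below the vancomycin mean, yet only 1 lay below the lowest vancomycin library. C1qb fell by 0.57 on the log2 scale in the combination against vancomycin alone (SE 0.18, 95% interval -0.93 to -0.20, edgeR adjusted p = 0.0453). It was the 1 gene of the 7 tested that was called, in a contrast where 7.91% of 6596 genes were called.

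The other chains had values on the same side without passing the test. C1qc medians were 29.3 CPM under vehicle (8.69 to 49), 29.7 under vancomycin (19.6 to 48.1), 20.5 under PFOS (10.7 to 44.1) and 15.6 under the combination (9.43 to 37.5). C1qa medians were 36.3 (20.02 to 59.9), 40.6 (23.2 to 51.9), 36.8 (15.4 to 55.3) and 26.7 CPM (11.3 to 41.5) in the same order. Of the 11 combination libraries 9 lay below the vancomycin mean for C1qc and 8 for C1qa. Against vancomycin the combination gave -0.65 for C1qc (SE 0.24, edgeR adjusted p = 0.0805) and -0.42 for C1qa (SE 0.18, adjusted p = 0.142).

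Against vehicle the combination called none of the 7 genes, where 8.14% of genes were called. The values were -0.54 for C1qb (SE 0.18, edgeR adjusted p = 0.0505), -0.63 for C1qc (SE 0.23, adjusted p = 0.0824) and -0.42 for C1qa (SE 0.18, adjusted p = 0.127). Tyrobp was at -0.36 (SE 0.13, adjusted p = 0.0644), with medians of 79.1 CPM under vehicle (57.8 to 113.5), 76.8 under vancomycin (55.7 to 96.6), 78.0 under PFOS (40.8 to 118.5) and 63.2 under the combination (39.5 to 99.1). At an unadjusted p under 0.05 there were 5 of 7 genes, against 23.5% of all genes, and DESeq2 called 1, C1qb. The median of the 7 was -0.36 and that of all genes 0.00. The vehicle group is shared by the contrasts with PFOS, vancomycin and the combination, and the combination group by 3 contrasts, so their values are not independent.

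Csf1r and Cd74 had values above 0 in these contrasts, and Aif1 values below 0. Csf1r medians were 76.0 CPM under vehicle (46.8 to 97.5), 70.0 under vancomycin (52.4 to 113.4), 90.35 under PFOS (57.0 to 136.9) and 82.7 under the combination (52.1 to 119.5). Its combination values were 0.16 against vehicle and 0.14 against vancomycin. Aif1 medians were 104.9 (71.8 to 127.8), 96.0 (51.4 to 121.7), 105.9 (82 to 181.7) and 88.6 CPM (65.9 to 135.4) in the same order, with -0.27 (SE 0.12, edgeR adjusted p = 0.145) and -0.06 in those contrasts. Against vehicle 9 of the 11 combination libraries lay below the vehicle mean of Aif1. Cd74 medians were 54.6 (30.9 to 100.1), 37.8 (19.1 to 73.0), 63.9 (25.3 to 160.6) and 52.7 CPM (24.5 to 110.6), with 0.02 against vehicle and 0.50 against vancomycin (SE 0.29, adjusted p = 0.299). No test of one gene's change against another's was made.

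The C1qb call was close to its threshold. Among fits that each left out 1 of the 47 libraries it was called in 24, with log2 values from -0.68 to -0.51 and adjusted p from 0.019 to 0.0958, the weakest without vancomycin replicate 22. Hypothalamic depth also moved with treatment, with mean totals of 905432 counts under vehicle, 740349 under vancomycin, 700533 under PFOS and 532574 under the combination. With log2 depth as a covariate C1qb was at -0.59 (edgeR adjusted p = 0.118) while the genes called in that contrast dropped from 522 to 119. With the number of G and C bases in the 6-base barcode as a covariate, whose mean was 1.0 in the first 3 groups and 1.73 in the combination, it was at -0.48 (adjusted p = 0.19).

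PFOS alone against vehicle called none of the 7 genes in hypothalamus, where 4.44% of genes were called. C1qc was at -0.49 (SE 0.21, edgeR adjusted p = 0.171) and Csf1r at 0.25 (SE 0.12, adjusted p = 0.218), the 2 of 7 with an unadjusted p under 0.05, against 20.6% of all genes. C1qb was at -0.11, C1qa and Tyrobp at -0.09, Aif1 at 0.08 and Cd74 at 0.17. Vancomycin against vehicle called none (0% of genes called, 0 of 7 at an unadjusted p under 0.05), with C1qa, C1qb, C1qc and Csf1r between -0.00 and 0.02, Tyrobp at -0.06, Aif1 at -0.20 and Cd74 at -0.48. The combination against PFOS called none (0% of genes called), though all 7 values lay below 0, from -0.43 to -0.09, and 3 of 7 had an unadjusted p under 0.05, against 7.41% of all genes. These were Aif1 at -0.35 (SE 0.12), C1qb at -0.43 (SE 0.19) and Tyrobp at -0.27 (SE 0.13), with a lowest edgeR adjusted p of 0.523. The interaction of the agents called none (0% of genes called, 0 of 7 unadjusted), and for C1qb it was -0.45 (SE 0.25, 95% interval -0.94 to 0.03). The PFOS effect on C1qb was thus not shown to depend on vancomycin. DESeq2 also called 0 of these genes in these 4 contrasts.

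Some genes of the related lists were called in hypothalamus. Of all genes there, 7.91% were called in the combination against vancomycin and 8.14% in the combination against vehicle. The lists were not tested against these shares. In the combination against vancomycin the microglial genes Cx3cr1, at 0.39, and Trem2, at -0.19, were not called. None of the tested class II genes was called, with RT1-Da at 0.73 (edgeR adjusted p = 0.19), and none of 6 complement genes beyond C1q. Il34 was at 0.09. In the combination against vehicle Fcer1g, which encodes an adaptor of Fc receptors related to Tyrobp, fell by 0.30 (adjusted p = 0.0423), the 1 called among 10 tested broad myeloid genes. Of 11 lysosomal genes, Ctsl fell by 0.46 and Npc2 by 0.23, and Psap rose by 0.23.

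Markers of other cell types were read beside the C1q result, in the same contrasts with 7.91% and 8.14% of all genes called. In the combination against vancomycin the myelin genes Mag, Mbp and Mobp of oligodendrocytes were called lower, at -0.60, -0.57 and -0.84, as was the haemoglobin gene Hbb at -0.44. Against vehicle Mbp was at -0.54 and Mobp at -0.79, 2 of 5 oligodendrocyte genes, with 3 of 5 tested blood genes called lower (Hbb -0.69, Hbb-b1 -0.59, Hba-a1 -0.49), and Kdr of endothelium at -0.64 and Pomc at -0.53. The 5 oligodendrocyte markers summed to 5820 to 8690 CPM under the combination and 5950 to 11000 under vancomycin, and the 7 blood markers to 2980 to 6270 and 3690 to 5970 CPM, with no marker of either list at 0. Neuronal markers summed to medians of 3740 and 3850 CPM, and the 12 microglial markers to 101 and 111. The part of these shifts in the C1qb value was not tested.

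In thyroid none of the 7 tested genes was called in any contrast. The shares of all genes called were 0.0589% for PFOS against vehicle, 0% for vancomycin, 2.95% for the combination, 3.26% for the combination against vancomycin, 0% for the combination against PFOS and 0% for the interaction. C1qb medians were 35.4 CPM under vehicle (20.2 to 46.8), 30.2 under vancomycin (18.5 to 40.8), 23.7 under PFOS (20 to 34.8) and 26.7 under the combination (15.8 to 35.98). C1qc medians were 31.8 (3.34 to 54.6), 29.7 (10.2 to 56.3), 25.5 (10.3 to 30.3) and 19.7 CPM (5.24 to 37.9). The groups overlapped for both genes. Thyroid depth moved with treatment as in hypothalamus, with mean totals of 797237 counts under vehicle, 541399 under vancomycin, 506273 under PFOS and 378578 under the combination. Mean barcode GC was 1.0 in the first 3 groups and 1.75 in the combination. The thyroid groups also sat in the same rows of wells as the hypothalamic groups. PFOS against vehicle gave -0.37 for C1qb (edgeR adjusted p = 0.232), -0.56 for C1qc (adjusted p = 0.249) and -0.46 for C1qa (adjusted p = 0.271), and the combination gave -0.37 for C1qb (adjusted p = 0.181), -0.68 for C1qc (adjusted p = 0.121) and -0.27 for C1qa (adjusted p = 0.514). Tyrobp, Aif1 and Csf1r were at -0.11, -0.21 and 0.18 under PFOS and at -0.26, -0.06 and -0.09 under the combination. Over the 7 genes the values ran from -0.22 to 0.04 for vancomycin against vehicle, -0.55 to 0.13 for the combination against vancomycin, -0.27 to 0.19 for the combination against PFOS and -0.19 to 0.23 for the interaction. Cd74 in thyroid lay between -0.10 and 0.01 in the contrasts of the treatments with one another and with vehicle. RT1-Db1, a class II beta chain gene, fell by 0.64 in the combination against vehicle (adjusted p = 0.0116) and by 0.56 against vancomycin (adjusted p = 0.0102).

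In pituitary 5 of the 8 genes were tested, since C1qa, C1qc and Cd68 fell under the filter, and none was called. The shares of genes called were 1.19% for PFOS, 0.0228% for vancomycin and 1.37% for the combination against vehicle, and 0% for the combination against vancomycin, for the combination against PFOS and for the interaction. Csf1r medians were 23.96 CPM under vehicle (10.8 to 56.8), 20.3 under vancomycin (11.1 to 39.4), 15.7 under PFOS (7.08 to 56.05) and 20.6 under the combination (9.88 to 27.3). These ranges overlapped, and PFOS gave -0.52 (SE 0.25, edgeR adjusted p = 0.79) and the combination -0.49 (SE 0.24, adjusted p = 0.629). Cd74 medians were 553, 585.5, 479.2 and 650.5 CPM under vehicle, vancomycin, PFOS and the combination, and its value of 0.32 in the combination against PFOS had an unadjusted p under 0.05 and an adjusted p of 1. C1qb, Aif1 and Tyrobp were at -0.15, -0.16 and -0.12 under PFOS and at -0.04, 0.06 and -0.02 under the combination. Over the 5 genes the values ran from -0.22 to 0.03 for vancomycin against vehicle, -0.27 to 0.17 for the combination against vancomycin, 0.03 to 0.32 for the combination against PFOS and 0.19 to 0.35 for the interaction.

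In liver none of the 7 tested genes was called, in groups of 8 to 10 libraries. The shares of genes called were 0.831% for PFOS, 0% for vancomycin and 0.769% for the combination against vehicle, 0.923% for the combination against vancomycin, 0% for the combination against PFOS and 0% for the interaction. Tyrobp medians were 37.4 CPM under vehicle (18.7 to 55.9), 39.04 under vancomycin (26.2 to 64.2), 51.3 under PFOS (31.4 to 82.9) and 39.8 under the combination (24.8 to 63.9). PFOS against vehicle gave 0.45 for Tyrobp (SE 0.22, edgeR adjusted p = 0.427), the opposite sign to hypothalamus at -0.09. C1qc medians were 39.1, 22.1, 41.6 and 28.4 CPM in the same order, with overlapping ranges, and the combination against PFOS gave -0.77 (SE 0.27, adjusted p = 1). C1qa, C1qb, Csf1r, Cd74 and Aif1 were at 0.07, -0.20, 0.01, -0.40 and 0.18 under PFOS and at -0.36, -0.13, 0.11, -0.35 and 0.08 under the combination. Over the 7 genes the values ran from -0.55 to 0.35 for vancomycin against vehicle, -0.36 to -0.06 for the combination against vancomycin, -0.77 to 0.09 for the combination against PFOS and -0.54 to 0.14 for the interaction.

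DESeq2 called 0 of the genes in every contrast of thyroid, pituitary and liver. At an unadjusted p under 0.05 thyroid had 3 of 7 genes under PFOS (16.5% of all genes), 2 under the combination (20.1%) and 1 in the combination against vancomycin (20.3%). Pituitary had 1 of 5 under PFOS (6.07% of all genes), 1 under the combination (7.88%) and 1 in the combination against PFOS (2.79%). Liver had 1 of 7 under PFOS (10.9%), 1 under vancomycin (3.05%), 1 under the combination (9.54%) and 2 in the combination against PFOS (3.51%). The other contrasts of these tissues had 0.

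**Figure D4:**
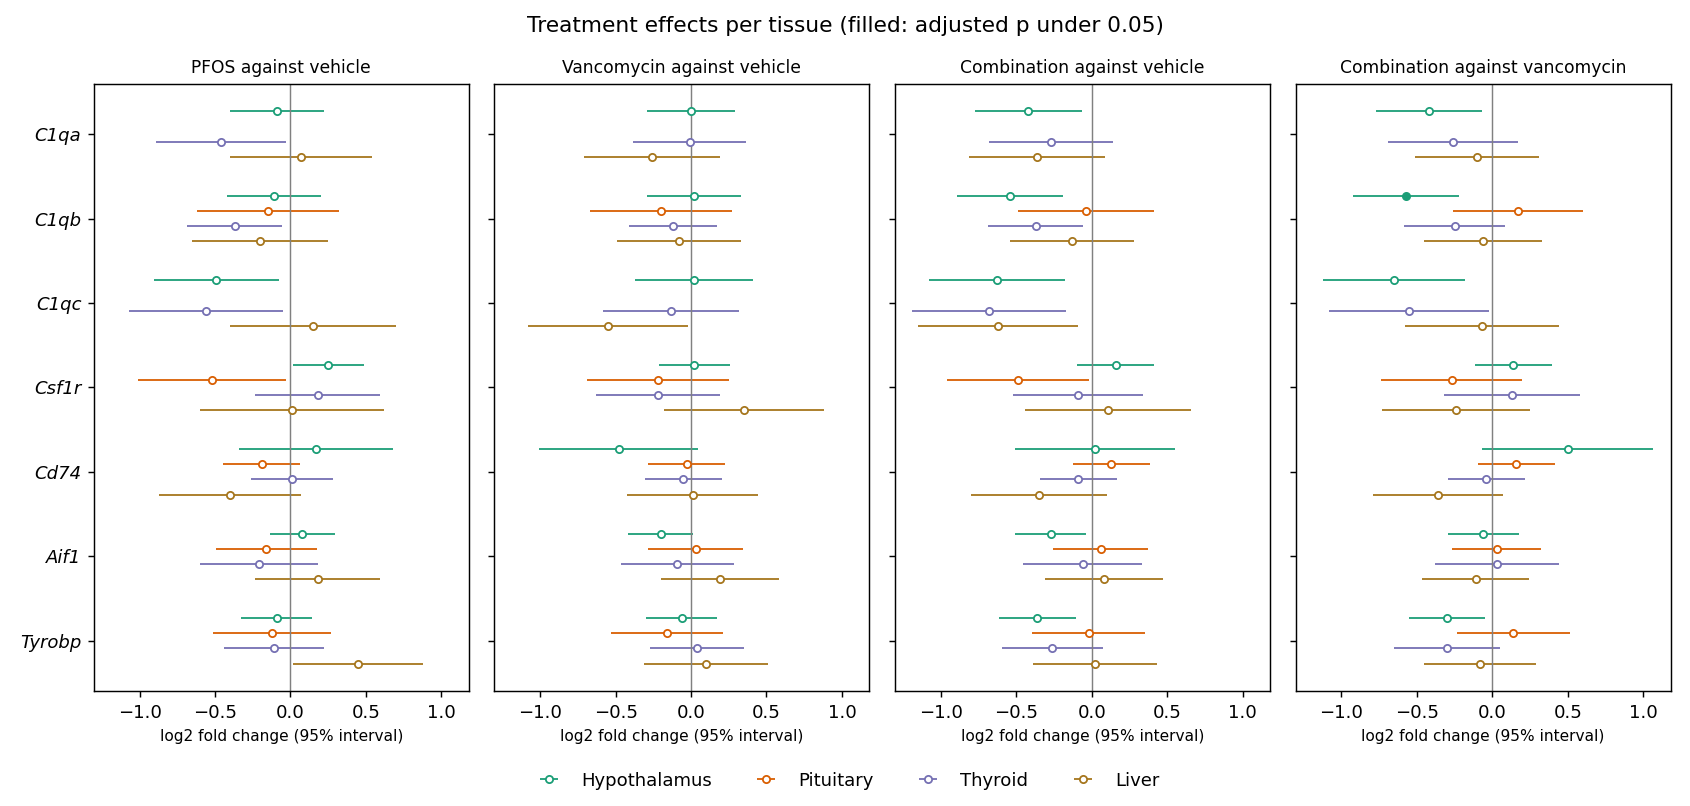
Log2 treatment effects with 95% intervals for the tested genes in each tissue, in the contrasts of the treatments with vehicle and of the combination with vancomycin. The 1 called value is C1qb in hypothalamus, at -0.57 in the combination against vancomycin.

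Whether effects differed between tissues was tested for PFOS and for the combination against vehicle. None of 7 genes was called between hypothalamus and pituitary (1.74% of genes called for PFOS, 2.69% for the combination), thyroid (0% and 0%) or liver (1.52% and 0.267%). The lowest adjusted p were for Csf1r against pituitary, whose hypothalamic effect exceeded the pituitary one by 0.76 under PFOS (SE 0.29, edgeR adjusted p = 0.216) and by 0.62 under the combination (SE 0.25, adjusted p = 0.157). Tyrobp under PFOS differed by -0.55 between hypothalamus and liver (SE 0.25, adjusted p = 0.332). The C1qb call was in the combination against vancomycin, a contrast that was not compared between tissues. For the combination against vehicle, the hypothalamic C1qb effect differed by -0.54 from pituitary, -0.16 from thyroid and -0.41 from liver, none called. Whether the called C1qb difference is particular to hypothalamus was therefore not tested. At an unadjusted p under 0.05 there was 1 of 7 genes for PFOS against pituitary (13% of all genes), PFOS against liver (12.4%) and the combination against pituitary (18.7%), and 0 in the other contrasts, and DESeq2 was not run on them.

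Within tissues the genes varied together to different degrees. Correlations were taken over libraries between log2 CPM values after removal of each treatment group's mean, for 28 pairs in each tissue, with a permutation p adjusted over all 112 pairs. In hypothalamus all 28 were above 0, with a median Pearson r of 0.39 over 47 libraries, and 13 passed the adjustment. Cd68, at 0 counts in 32 of those libraries, was part of 3 of them, and 10 of the 21 pairs without Cd68 passed. By Spearman's rho 10 of the 13 also passed. In pituitary, thyroid and liver 1 pair each passed by Pearson r, with medians of 0.09, 0.15 and 0.18. By Spearman's rho 2, 0 and 1 pairs passed in the same order. The share of other gene pairs that would pass was not computed. The hypothalamic counts were therefore not shown to be particular to these genes.

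Among the hypothalamic pairs that passed were Aif1 with Tyrobp, Aif1 with Csf1r, and all 3 pairs of C1q chains. Aif1 with Tyrobp gave r = 0.61 (permutation p = 3e-05, adjusted p = 0.00168; Spearman 0.56, permutation p = 9e-05, adjusted p = 0.00336), and r = 0.62 without the 2 libraries farthest from the median of Aif1. C1qa with C1qc gave 0.60 (permutation p = 2e-05, adjusted p = 0.00168; Spearman 0.66), and 0.58 without 2 libraries. C1qa with C1qb gave 0.54 (permutation p = 0.00026, adjusted p = 0.00432; Spearman 0.57), and 0.53 without 2. C1qb with C1qc gave 0.48 (permutation p = 0.00131, adjusted p = 0.0121; Spearman 0.51), and 0.46 without 2. Csf1r with Aif1 gave 0.56 (permutation adjusted p = 0.00364), and 0.48 without 2. Its Spearman value was 0.53 (permutation adjusted p = 0.00656). The C1q genes thus varied together in hypothalamus even with treatment means removed. So did C1q genes with genes outside C1q, such as C1qb with Aif1 (0.51, Spearman 0.50) and C1qa with Tyrobp (0.54). For C1qa with Tyrobp, r was 0.44 without 2 libraries, and the Spearman value of 0.38 did not pass (permutation adjusted p = 0.0691). In thyroid and liver no pair of C1q chains passed. Median counts per library of C1qa, C1qb and C1qc were 22, 29 and 17 in hypothalamus. They were 13, 14 and 11 in thyroid, 14, 18 and 15 in liver, and 5, 10 and 5 in pituitary. The part of these lower counts in the correlations was not tested.

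In pituitary the pair that passed by Pearson r was C1qb with C1qc, at 0.56 over 48 libraries (permutation adjusted p = 0.00187). Csf1r with Aif1 passed there by Spearman's rho only, at 0.45 (permutation adjusted p = 0.0196), with a Pearson r of 0.39 (permutation adjusted p = 0.0657). In thyroid it was Aif1 with Tyrobp, at 0.47 over 46 libraries (permutation adjusted p = 0.0121), whose Spearman value did not pass (adjusted p = 0.0691). In liver it was C1qa with Cd68, at 0.55 over 37 libraries (permutation adjusted p = 0.00571). With log2 depth regressed out, 15 hypothalamic, 3 pituitary, 1 thyroid and 1 liver pair passed. Tissues were not tested against each other.

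**Figure D5:**
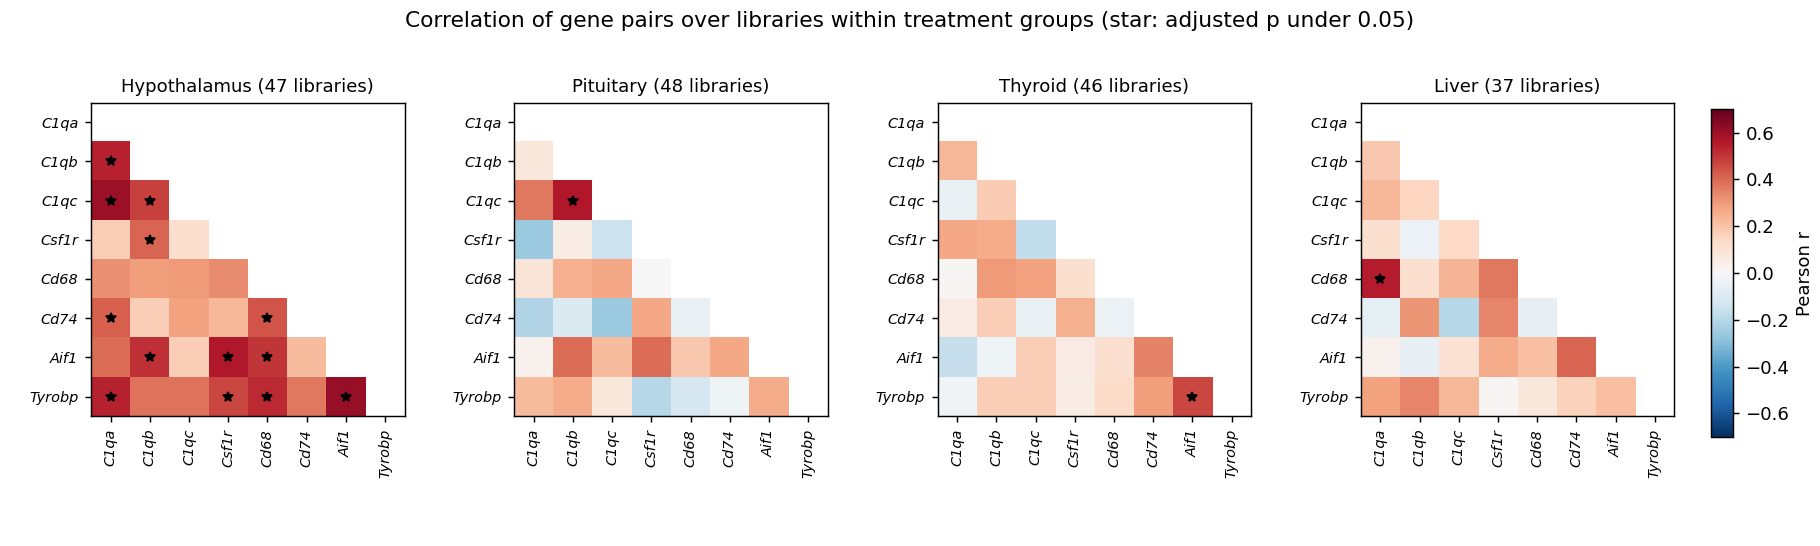
Pearson r between each pair of the 8 genes in each tissue, over libraries, after removal of treatment group means. All 28 hypothalamic pairs lie above 0 with a median of 0.39, against medians of 0.09 in pituitary, 0.15 in thyroid and 0.18 in liver.

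Genes whose libraries varied most like the mean of the tested genes differed by tissue, given here as a description over libraries that share depth. In hypothalamus they were Nnat (r = 0.78), Gfap (0.72), Fxyd1 (0.72), Lgals1 (0.71) and Tmem176b (0.70), over 47 libraries. Gfap encodes the intermediate filament of astrocytes. In pituitary they were Fcer1g (0.69), LOC100910973 (0.63), Wdr61 (0.61), Ifitm3 (0.56) and Pgm1 (0.53). In thyroid they were Lyz2 (0.61), which encodes the lysozyme of macrophages, the class II genes RT1-Db1 (0.56) and RT1-Da (0.55), Klhl7 (0.54) and Dcn (0.54). In liver they were Hsd17b2 (0.69), Ctss (0.67), Clec4f (0.65), Psmb9 (0.60) and Thrsp (0.58). Ctss encodes the cathepsin that trims the invariant chain, and Clec4f marks Kupffer cells.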

How the data were processed

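The authors deposited raw whole-number counts per gene for 192 libraries in 2 tables. BWA 0.7.4.4 and build rn6 are named, without a role, per the submitters' processing notes; the names of the deposited tables carry the terms unq, refseq and umi, which may stand for unique molecular identifiers counted on RefSeq genes, though no label or header describes the counting. From the deposited counts, CPM was computed per library and 14 libraries under 100000 counts were left out (11 liver, 2 thyroid, 1 hypothalamus). Groups came from the labels. Each tissue was fitted with all 4 treatments, and the tissues with vehicle libraries, in edgeR 4.0.16 (R 4.3.3; TMM, filterByExpr with a minimum count of 10, robust quasi-likelihood test), with Benjamini-Hochberg adjustment over all genes tested and a threshold of 0.05. Depth sets the precision: at 500000 counts, 1 count is worth 2 CPM. Alternatives were DESeq2 1.42.0, its size factors, total-count scaling, no filter, a minimum of 500000 counts, all libraries, depth or barcode GC as covariates, only the groups compared, a replicate block, and leaving out each library. Correlations used a pseudocount of 0.5 counts and 100000 permutations (scipy 1.17.1). The scripts were tested on simulated data. The rule was to name all 8 genes in every contrast, those not printed singly being covered by the range of the contrast; from other lists, genes are drawn from the first 4 tested as listed and called genes where at most 5 were called (1 list gene is not reported here), and a few other list genes picked with their values known. The genes and lists were chosen with earlier results of these data known. Promoters came from RefSeq's GRCr8 tables, a build other than rn6, and were not joined to the counts by position. The labels reuse replicate numbers across tissues. In vehicle rats all 12 same-numbered pairs of hypothalamus and thyroid libraries deviated together (r over 0.1), so the value with the replicate block is given where it changes a call between them. Same-numbered hypothalamus and thyroid libraries sat in the same well position of their plates, as did those of pituitary and liver. A shared animal and a shared well position therefore cannot be told apart here.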

Additional observations from a re-analysis of the deposited data

Results flagged for a closer look

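The groups of 4 to 10 libraries, those of liver and of thyroid PFOS, gave 40 combinations of gene and group. Of these, 3 held a library far from the others by Dixon's criterion, which chance gives in about 1 of 20. Genes of one group share their libraries, so the combinations are not independent. C1qa stood at 85.37 CPM in liver vehicle replicate 1, where the next library was at 42.86 and the total was 163991 counts. C1qa stood at 56.93 CPM in liver vancomycin replicate 18, where the next was at 36.82. Csf1r stood at 47.4 CPM in liver vancomycin replicate 19, where the next was at 30.46.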

How the results depend on the processing

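Treatment calls were few and lay near the threshold. In hypothalamus the combination against vancomycin called 1 gene, and 0 with no filter, with a minimum of 500000 counts, with the depth covariate and with the barcode GC covariate, and 2 with only the groups compared; leaving out single libraries gave 0 to 2. C1qb was no longer called without vehicle 8 or 9, vancomycin 14, 15, 18, 19, 21, 22, 23 or 24, PFOS 27, 28, 30 or 34, or combination 38, 39, 41, 42, 43, 45, 46, 47 or 48. The combination against vehicle called 0, and 1 each with DESeq2 and its size factors, with 0 to 3 when single libraries were left out. Tissue counts moved as follows: hypothalamus against thyroid from 3 to 5 with DESeq2, with its size factors and with total counts, thyroid against liver from 7 to 1, hypothalamus against pituitary from 5 to 7 and pituitary against thyroid from 3 to 4 with total counts, and hypothalamus against pituitary from 5 to 2 with a minimum of 500000 counts. With pseudocount 2 the correlated pairs rose from 1 to 3 in pituitary and from 1 to 2 in liver, and with depth regressed out to 3 in pituitary. The cause was not tested. Directions reversed under total counts for hypothalamus against liver (C1qa 0.04, C1qb 0.23, Tyrobp 1.03), pituitary against thyroid (Tyrobp -0.07, Cd74 -0.29), pituitary against liver (Csf1r 0.34, Aif1 0.42, Tyrobp 0.30) and thyroid against liver (Csf1r 0.24, Tyrobp 0.38). They reversed at a minimum of 500000 counts for hypothalamus against pituitary (C1qc -0.16, Tyrobp -0.20) and pituitary against thyroid (C1qb 0.21, Csf1r -0.05, Cd74 -0.29), for Cd74 in pituitary against thyroid with no filter (-0.08), and for C1qa in hypothalamus against thyroid with all libraries (-0.01). Against liver, hypothalamus had 3 genes called higher and 1 lower with total counts, in place of 0 and 4. The replicate numbers of the labels recur across tissues. Of 248 same-numbered pairs 137 had r over 0.1 (range -0.31 to 0.65). Among them were 44 of 45 pairs of hypothalamus and thyroid, where 41 correlated best with their own number. Pituitary and liver, the other tissues that share well positions, had 28 of 37, with 26 best with their own number. The rest were 19 of 47 (hypothalamus and pituitary), 18 of 46 (pituitary and thyroid), 16 of 37 (hypothalamus and liver) and 12 of 36 (thyroid and liver). In vehicle rats the replicate block was fitted over all tissues at once, as an alternative only. The block added Tyrobp (hypothalamus against thyroid, 0.39), Csf1r (pituitary against liver, -0.53) and Aif1 (pituitary against liver, -0.43) and changed no other call. With the replicate block the calls were 5, 4 and 4 for hypothalamus against pituitary, thyroid and liver, 3 for pituitary against thyroid, 7 for pituitary against liver and 7 for thyroid against liver, and 0 for the differences of effects.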
